A study of Homo sapiens with 3 samples.

Results

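The genes described are 48 genes of mitosis, the spindle and the centrosome, from cyclin B and CDK1 to the centriole protein SASS6. They were chosen by name as a functional group, and each is represented by the probe set with its highest mean log2 signal among those that the platform annotation gives 1 gene symbol. All 48 had such a probe set, out of 19775 genes represented on the arrays. They had 89 such probe sets in all, with 27 genes read by 1 and 21 by several.

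The study measured gene expression on Affymetrix arrays in a human colorectal cancer line, on 3 arrays with 1 array per group. The LATS2 cells were infected with a virus carrying full-length LATS2, the LATS2N cells with one encoding only its residues 1 to 625, and the control cells with an empty-vector virus. The sample labels name the line SW620, whereas the series' design text names SW480 with stable expression of the constructs, and both are established colorectal cancer lines. All cells were grown alike in serum-containing medium, and the labels name neither the promoter, nor the clone or pool, nor the time after infection. With 1 array per group there is no spread between cultures and no test of any difference, so every comparison below is a difference between single arrays.

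Entry into mitosis is driven by the kinase CDK1 bound to cyclin B, which CDC25 phosphatases switch on and which Aurora and Polo-like kinases help to deploy. The spindle checkpoint holds back the anaphase-promoting complex until every kinetochore is attached, after which securin and cyclin B are destroyed and separase parts the sister chromatids. Transcripts of most of these genes peak in G2 and M phase, so that in unsynchronised cells their level follows the share of cycling cells as well as transcription per cell. A bulk array cannot tell fewer cells in G2 and M phase from less RNA per cell. LATS2, a kinase of the Hippo pathway, is known to be phosphorylated by Aurora A, to locate to centrosomes and to promote assembly of the DREAM complex, a repressor of cell cycle genes, through the kinase DYRK1A.

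Many mitotic genes share a promoter layout in which a CHR element (cell cycle genes homology region) near the start of transcription is bound by the DREAM complex or by complexes of B-MYB and FOXM1, and CCAAT boxes upstream are bound by NF-Y. Promoters of genes to which the results refer are printed below, with and without these motifs, taken from RefSeq on GRCh38.p14 from 200 bases before to 30 bases after the annotated start. CDC25C and INCENP were the genes furthest above and below control on the LATS2 array, CCNB1 and CCNB2 encode cyclin B, and PLK1 encodes the main Polo-like kinase. Capitals mark CHR elements (TTTGAA or TTTAAA) and CCAAT boxes (CCAAT) on either strand, so that TTCAAA and ATTGG are the same motifs read from the other strand.
CDC25C (chr5:138338326-138338555, minus strand): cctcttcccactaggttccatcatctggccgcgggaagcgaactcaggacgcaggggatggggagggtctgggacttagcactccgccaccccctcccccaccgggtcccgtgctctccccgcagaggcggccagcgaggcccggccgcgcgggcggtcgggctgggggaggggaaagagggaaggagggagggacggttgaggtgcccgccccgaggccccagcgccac
INCENP (chr11:62123811-62124040, plus strand): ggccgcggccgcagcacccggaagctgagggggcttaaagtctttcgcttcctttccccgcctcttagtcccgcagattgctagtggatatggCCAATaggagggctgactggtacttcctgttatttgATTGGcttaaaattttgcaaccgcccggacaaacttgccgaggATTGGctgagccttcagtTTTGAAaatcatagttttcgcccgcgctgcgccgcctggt
CCNB1 (chr5:69166950-69167179, plus strand): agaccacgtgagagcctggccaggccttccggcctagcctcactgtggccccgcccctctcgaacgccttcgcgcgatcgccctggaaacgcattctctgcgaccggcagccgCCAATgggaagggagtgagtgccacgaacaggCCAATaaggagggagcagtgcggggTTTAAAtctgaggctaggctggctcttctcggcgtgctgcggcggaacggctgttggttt
CCNB2 (chr15:59104946-59105175, plus strand): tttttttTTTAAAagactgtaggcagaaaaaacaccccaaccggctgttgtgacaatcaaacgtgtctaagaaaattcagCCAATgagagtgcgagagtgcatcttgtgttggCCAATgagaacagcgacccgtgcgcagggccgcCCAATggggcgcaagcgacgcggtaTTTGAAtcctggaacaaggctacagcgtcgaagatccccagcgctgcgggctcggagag
PLK1 (chr16:23678689-23678918, plus strand): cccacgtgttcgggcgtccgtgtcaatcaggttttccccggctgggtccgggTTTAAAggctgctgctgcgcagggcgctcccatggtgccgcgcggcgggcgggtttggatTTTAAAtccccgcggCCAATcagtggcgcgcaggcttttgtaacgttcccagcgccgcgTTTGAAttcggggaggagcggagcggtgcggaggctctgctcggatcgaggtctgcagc
The window of CDC25C holds no copy of either motif, that of INCENP 1 CHR element and 3 CCAAT boxes, and that of CCNB1 1 and 2. Each window is set by 1 annotated start per gene and would miss motifs near another start. An empty window therefore does not show that a gene, such as CDC25C, lacks these elements. CCNB2 holds 2 CHR elements and 3 CCAAT boxes here, and PLK1 3 and 1.

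The promoter table held 40 of the 48 genes, without AURKA, BUB3, TTK, BIRC5, UBE2C, TPX2, RACGAP1 and FOXM1. Over windows from 250 bases before to 50 after the start, a CHR element was present in 30 of the 40 (75%), against 24.3% of all 27305 promoters of the same length. A CCAAT box was present in 27 (67.5%), against 35.7% of all promoters, and both motifs in 23 (57.5%), against 9.49%. The motif GGAATG, which TEAD factors are known to bind, was present in 4 (10.0%), against 14.0% of all promoters. TTTAAA reads the same on both strands, and a TEAD motif can share bases with a neighbouring CCAAT box. A match describes only these letters in this window.

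**Figure D1:**
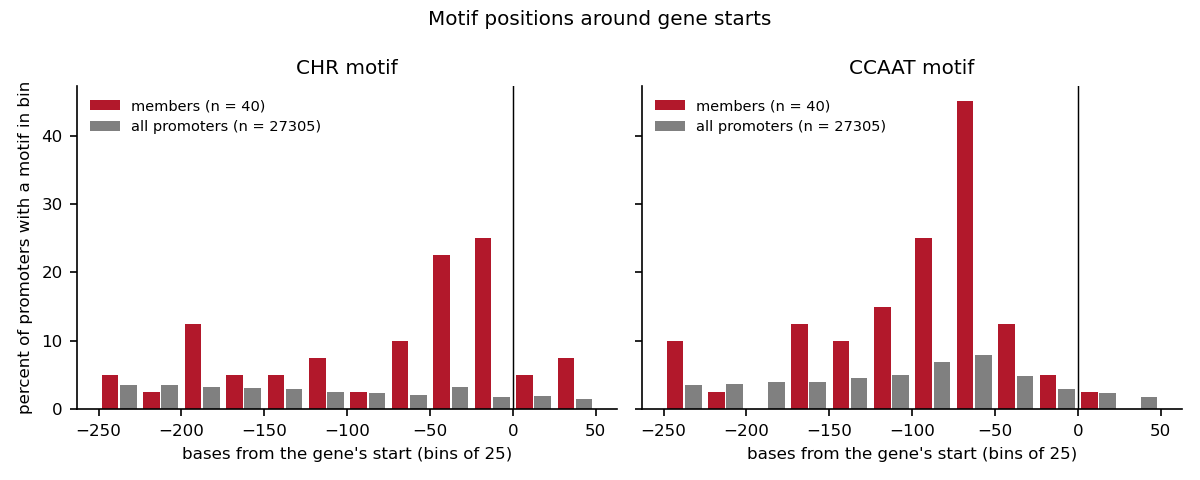
Share of promoters (percent, y axis) with a CHR element (left) or a CCAAT box (right) in each 25-base bin of distance from the gene's start (x axis), for the 40 mitotic genes in the promoter table (red) and all 27305 promoters (grey). The CHR elements of the mitotic genes lie mostly just before the start and their CCAAT boxes somewhat further upstream.

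Positions were also uneven, as the plot of motif positions shows. A CHR element began between 75 bases before and 50 bases after the start in 26 of the 40 genes (65.0%), against 9.47% of all promoters. A CCAAT box began between 150 and 25 bases before the start in 25 (62.5%), against 22.8%. Both windows were chosen after the positions had been seen. The 30 genes with a CHR element had a median log2 ratio of 0.04 in LATS2 against control, 0.02 in LATS2N against control and 0.03 in LATS2 against LATS2N. The 10 without one had medians of 0.15, 0.06 and 0.10 in the same order, and the groups overlapped throughout.

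The values are MAS5 signals on a linear scale, and each array had the same mean of 500.1 after its lowest and highest 2% of signals were left out. The 3-prime to 5-prime ratio of GAPDH lay between 0.94 and 1.02, and that of ACTB between 1.68 and 1.85. The median signal of the 18S ribosomal RNA probe sets was 6632 on the LATS2, 10612 on the LATS2N and 17278 on the control array, and its part in the results below was not tested. All 10 fixed colon epithelial markers read above the median signal of all probe sets (50.5, used as a floor) on every array, although KRT20 read only 108.5 to 126.8. Of 10 measured markers of leukocytes, fibroblasts and endothelium, 3 reached the floor on the LATS2, 3 on the LATS2N and 4 on the control array, with summed signals of 863.2, 922.1 and 713.2. The brightest of these was COL1A1, at 596.5, 606.8 and 325.3 in the same order. PTPRC, CD3E, COL1A2, COL3A1, VWF and CDH5 were below the floor on every array. Of the 4 LATS2 probe sets 2 stayed below the floor. The others read 219.2 and 377.1 on the LATS2, 219.1 and 409.2 on the LATS2N, and 205.7 and 385.2 on the control array, so none above the floor showed the labelled overexpression. Whether they lie within the cloned sequence is not known here, and the arrays are named by their labels.

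Mitotic genes read nearly alike on the 3 arrays. The geometric mean of the 48 signals was 2925 on the LATS2, 2799 on the LATS2N and 2847 on the control array. For a typical gene the highest array was 1.149-fold above the lowest (median over the 48), for 40 genes the gap was under 1.25-fold, and for 46 it was under 1.5-fold. The largest gap was 1.62-fold, for CDC25C, and the smallest 1.02-fold. All 48 read above the floor on every array, from 128.2 to 20573, and 45 read at least 500 on all 3.

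The LATS2 array had the highest signal for 23 of the 48 genes, the LATS2N array for 15 and the control array for 10. The lowest signal was on the LATS2 array for 9, the LATS2N array for 19 and the control array for 20. Of the 7500 genes with a signal of 500 or more on any array, 41.1% were highest on the LATS2, 30.1% on the LATS2N and 28.8% on the control array. Of these genes 30.1% were lowest on the LATS2, 32.6% on the LATS2N and 37.4% on the control array. The lowest shares of the 48 were 18.75%, 39.6% and 41.7% in the same order. For both ranks the arrays fell in the same order over all such genes as over the 48.

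In LATS2 against control, the median log2 ratio of the 48 genes was 0.04, with quartiles of -0.05 and 0.14. The median over all 13186 genes that reached the floor was 0.03. By size, 1 mitotic gene was at least 1.5-fold higher, CDC25C, against 5.85% of all genes, and 1 was at least 1.5-fold lower, INCENP, against 4.41%. At a signal of at least 500, where 45 of the 48 lie, the shares of all genes were 1.96% and 1.59%. No mitotic gene was 2-fold higher or lower, against 0.963% and 0.842% of all genes at the floor or above. Of the 45 at 500 or more, CDC25C alone was 1.5-fold higher (2.22%) and none was 1.5-fold lower, close to the 1.96% and 1.59% of all such genes. INCENP was too dim for that set. In this comparison 32 of the 48 were above 0 (66.7%), against 54.8% of all genes at the floor or above and 56.3% of those at 500 or more.

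In LATS2N against control, the median was 0.03 with quartiles of -0.14 and 0.11, and 26 of the 48 were above 0 (54.2%), against 53.6% of all genes at the floor or above and 52.3% at 500 or more. No gene was 1.5-fold higher or lower, against 4.86% and 3.27% of all 13245 genes, nor 2-fold, against 0.944% and 0.566%. Among genes with a signal of 500 or more, 1.04% were 1.5-fold higher and 0.749% lower. Between the constructs, LATS2 against LATS2N had a median of 0.03 with quartiles of -0.11 and 0.17, and 30 were above 0 (62.5%), against 52.3% of all genes and 54.8% at 500 or more. There CDC25C alone was 1.5-fold higher, against 4.27% of all genes, and none was 1.5-fold lower, against 5.07%. With a signal of 500 or more, 1.47% of all genes were 1.5-fold higher and 1.75% lower. None was 2-fold apart there, against 0.592% higher and 1.0% lower. The comparisons with control share the control array, and LATS2 against LATS2N shares an array with each of them, so the 3 sets of ratios are not independent.

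**Figure D2:**
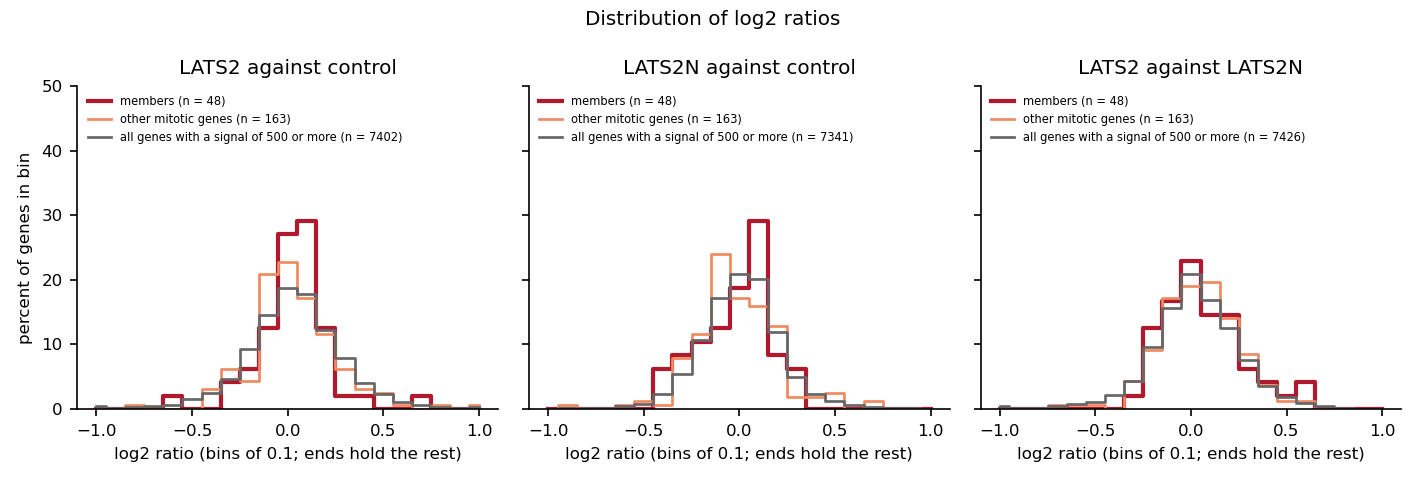
Percent of genes (y axis) in each 0.1-wide bin of log2 ratio (x axis) for the 48 mitotic genes (thick red), 163 other mitotic genes (orange) and all genes with a signal of 500 or more (grey), in the 3 comparisons. All 3 distributions centre near 0, and 87.5% of the 48 genes lie within 0.25 of 0 in LATS2 against control.

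Within 0.25 of 0 on the log2 scale lay 42 of the 48 genes in LATS2 against control, 38 in LATS2N against control and 39 in LATS2 against LATS2N. Among all genes with a signal of 500 or more these shares were 72.7%, 80.8% and 75.5%, against 87.5%, 79.2% and 81.2% for the 48. For scale, probe sets for the same gene differed in their LATS2 against control ratio with a robust SD that shrank as signals grew. It was 0.36 at signals of 100 to 200, 0.27 at 200 to 500, 0.18 at 500 to 2000 and 0.12 from 2000 up, by the dimmer array. For LATS2N against control these SDs were 0.34, 0.24, 0.15 and 0.09. This spread describes probe sets within the same arrays and leaves out differences between cultures.

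**Figure D3:**
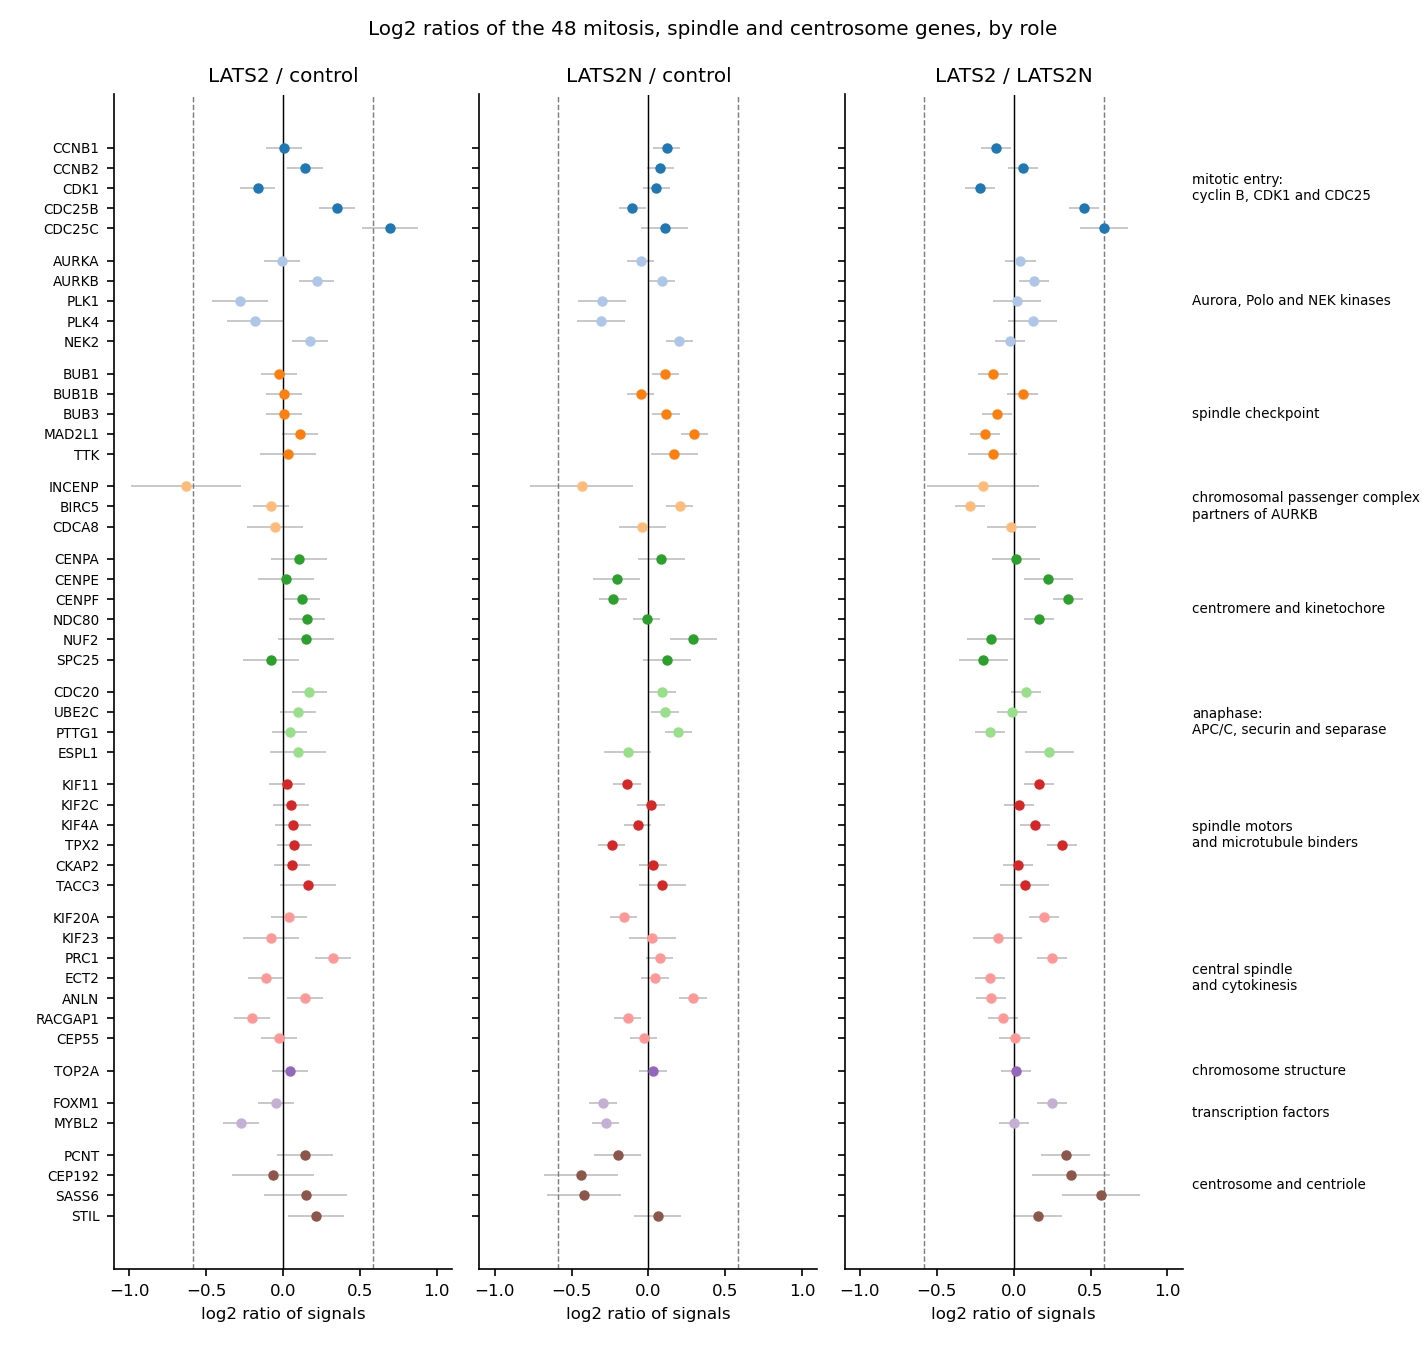
Log2 ratio of signals (x axis) for each of the 48 genes (rows, coloured by role) in LATS2 against control (left), LATS2N against control (middle) and LATS2 against LATS2N (right). Grey bars are 1 robust SD between probe sets of similar signal, not a spread between cultures, and dashed lines mark 1.5-fold. CDC25C and INCENP pass the dashed lines in LATS2 against control, CDC25C barely passes in LATS2 against LATS2N, and no gene passes in LATS2N against control.

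Among the genes of mitotic entry are CDC25 phosphatases, which remove the inhibitory phosphates from CDK1. CDC25B and CDC25C were higher on the LATS2 array than on the others. CDC25A, a phosphatase of this family in the wider list described below, was not. It read 1656 on the LATS2, 1659 on the LATS2N and 1742 on the control array, with a log2 ratio of -0.07 for each construct against control. CDC25C read 905.5 on the LATS2, 602.8 on the LATS2N and 560.0 on the control array. The LATS2 array was thus high alone, 1.62-fold above control (log2 ratio 0.69) and 1.502-fold above LATS2N (0.59), while LATS2N against control was 0.11. A dimmer CDC25C probe set read 191.2, 172.0 and 147.8 in the same order, which put LATS2 0.37 and LATS2N 0.22 above control on the log2 scale. It gave the same order of arrays and a smaller difference. CDC25C lies at chr5:138285265-138338355 on GRCh38.p14.

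CDC25B, which is thought to start CDK1 activation at the centrosome, had 1 probe set, reading 4918 on the LATS2, 3583 on the LATS2N and 3852 on the control array. LATS2 was again high alone, with a log2 ratio of 0.35 against control and 0.46 against LATS2N, and LATS2N against control was -0.10. CDK1 itself read 14055, 16335 and 15770 in the same order. The LATS2 array was the lowest, at -0.17 against control, and all 4 CDK1 probe sets had a ratio between -0.21 and -0.14 there. The cyclin B genes lay at or slightly above control. CCNB1 had ratios of 0.00 with LATS2 and 0.12 with LATS2N, and its second probe set gave 0.15 and 0.19. CCNB2 was 0.14 and 0.08 above control.

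**Figure D4:**
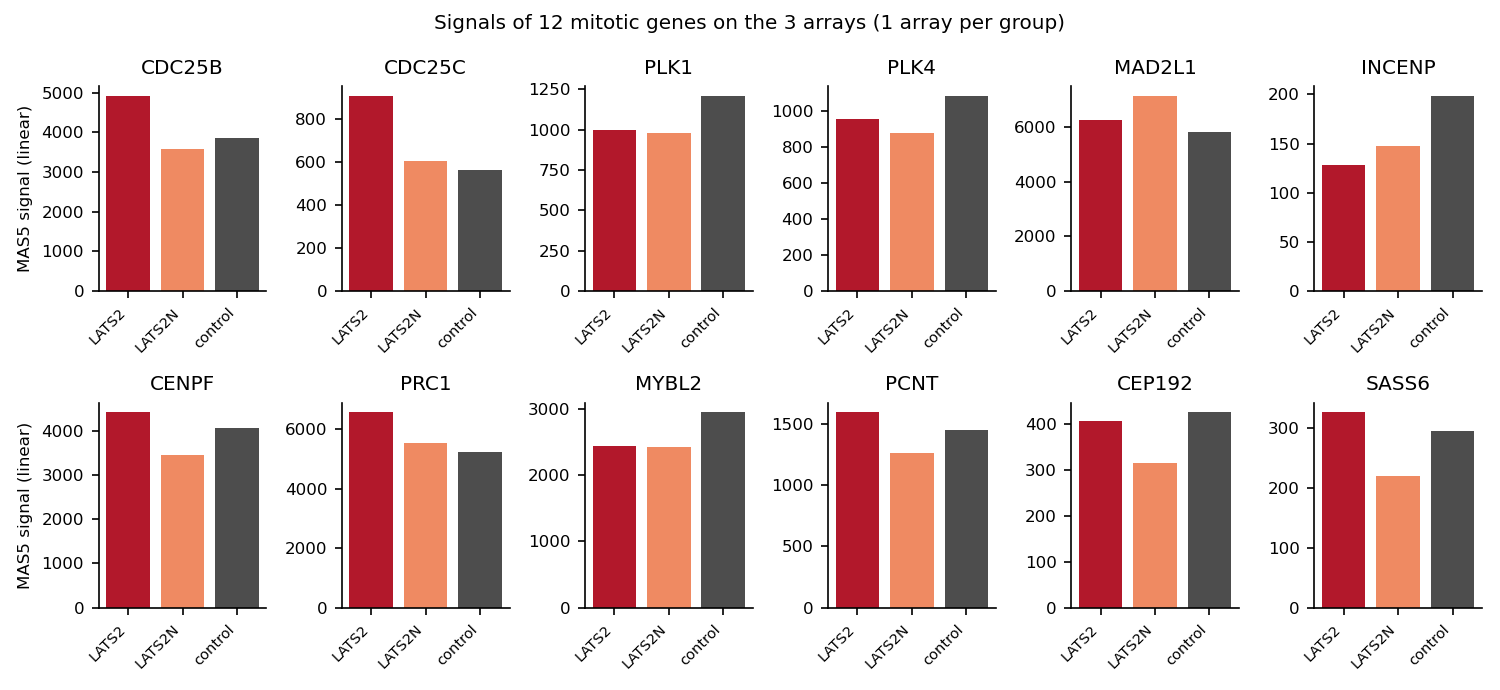
MAS5 signal (linear y axes from 0, a scale per gene) of 12 mitotic genes on the LATS2 (red), LATS2N (orange) and control (grey) arrays, 1 array per bar and no error bars because there are no replicates. CDC25C and CDC25B are highest on the LATS2 array alone, PLK1 and MYBL2 read lower on both construct arrays, and CEP192 and SASS6 are lowest on the LATS2N array.

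The Polo-like kinases read lower on both construct arrays than on control. PLK1, which acts from mitotic entry to cytokinesis, read 997.9 on the LATS2, 982.7 on the LATS2N and 1211 on the control array, with log2 ratios of -0.28 and -0.30 against control. PLK4, the kinase that starts centriole duplication, read 952.4, 874.3 and 1083 in the same order, with ratios of -0.18 and -0.31. Its other usable probe set gave -0.07 and -0.28. PLK1 had 1 probe set, and at these signals the SD between probe sets was 0.18 for LATS2 and 0.15 for LATS2N, so each PLK ratio was about 1 to 2 times that spread. The Aurora kinases did not share the direction: AURKA, which matures centrosomes, had ratios of -0.01 and -0.05, and AURKB, the kinase of the chromosomal passenger complex, 0.22 and 0.09. NEK2, which splits centrosomes, was above control on both, at 0.18 and 0.20, with a second probe set at 0.33 and 0.28.

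INCENP, the scaffold that activates AURKB, read 128.2 on the LATS2, 147.2 on the LATS2N and 198.6 on the control array. Control was thus the highest, and LATS2 was 1.55-fold below it, with a log2 ratio of -0.63, against -0.43 for LATS2N. It had the lowest signals of the 48, it had 1 probe set, and the SD between probe sets at such signals was 0.36 for LATS2 and 0.34 for LATS2N. INCENP lies at chr11:62124011-62153169. Of the other partners of AURKB, CDCA8 (borealin) stayed close to control, with ratios of -0.05 and -0.04. BIRC5 (survivin) had -0.08 and 0.20, but its 4 probe sets ranged from -0.13 to 0.30 for LATS2 and from -0.16 to 0.62 for LATS2N.

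The spindle checkpoint genes were close to control on the LATS2 array and slightly above it on the LATS2N array. Their 5 log2 ratios ranged from -0.03 to 0.11 for LATS2 and from -0.05 to 0.30 for LATS2N, with medians of 0.01 and 0.12. MAD2L1, whose product inhibits CDC20, read 6266 on the LATS2, 7144 on the LATS2N and 5809 on the control array. LATS2N was the highest, at 0.30 against control, but the other MAD2L1 probe sets gave 0.03 and 0.09. BUB1B was the gene of the 5 below control on the LATS2N array, at -0.05. BUB3 had 5 probe sets above the floor that disagreed, from -0.44 to 0.43 for LATS2, while its brightest gave 0.00. For LATS2N they ranged from -0.32 to 0.12, and the brightest, the value used, gave 0.12.

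At the kinetochore, the 6 genes had ratios from -0.08 to 0.15 for LATS2 and from -0.23 to 0.29 for LATS2N against control. CENPF, a large corona protein, read 4429 on the LATS2, 3468 on the LATS2N and 4068 on the control array. LATS2N was the lowest. Against control the LATS2 array was at 0.12 and the LATS2N array at -0.23, and the constructs were 0.35 apart. A dimmer CENPF probe set gave 0.41, -0.19 and 0.60 in the same order, so the ordering of the arrays was the same with both. CENPE, the kinesin that carries chromosomes to the plate, was likewise lowest on the LATS2N array, at -0.21 against control. NUF2 and SPC25 of the NDC80 complex were the reverse and highest on the LATS2N array, at 0.29 and 0.12. NDC80 itself had ratios of 0.15 and -0.01, and the centromeric histone gene CENPA 0.10 and 0.08.

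Genes of anaphase were mostly slightly above control. All 4 were above 0 for LATS2, from 0.04 for PTTG1 (securin) to 0.17 for CDC20, the activator of the anaphase-promoting complex. UBE2C, the conjugating enzyme of that complex, had ratios of 0.09 and 0.11 for LATS2 and LATS2N. For LATS2N, 3 of the 4 were above 0 and ESPL1 (separase) was at -0.14. A second ESPL1 probe set gave 0.26 for LATS2 and -0.15 for LATS2N. Among all genes at 500 or more, 56.3% were above 0 for LATS2 and 52.3% for LATS2N. Apart from PTTG1 on the LATS2N array (0.19), the ratios used for the 4 genes lay within 2 SDs between probe sets of similar signal.

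Spindle motors and microtubule binders showed a narrow range. All 6 were above 0 for LATS2 against control, from 0.03 for KIF11, the motor that pushes spindle poles apart, to 0.16 for TACC3, which crosslinks spindle microtubules. Each of these ratios was below 1 SD between probe sets of similar signal. Of all genes at the floor or above, 54.8% were above 0 there, and 56.3% of those at 500 or more. For LATS2N they ranged from -0.24 for TPX2, the activator of Aurora A, to 0.09 for TACC3, and 3 were below 0. TPX2 read 5648 on the LATS2, 4549 on the LATS2N and 5366 on the control array, so LATS2N was the lowest. KIF2C, a microtubule depolymeriser, KIF4A, a chromosome-bound motor, and CKAP2, a spindle-associated protein, had ratios of 0.05, 0.07 and 0.06 for LATS2. Dimmer usable probe sets of KIF2C and CKAP2 had the opposite sign for LATS2, at -0.06 and -0.12.

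The 7 genes of the central spindle and cytokinesis went in either direction. PRC1, which bundles the antiparallel microtubules of the midzone, read 6569 on the LATS2, 5521 on the LATS2N and 5246 on the control array. It was highest on the LATS2 array, at 0.32 against control, where the SD between probe sets of this signal was 0.12. ANLN (anillin), a scaffold of the contractile ring, was highest on the LATS2N array, at 0.29, and its second probe set gave 0.14. RACGAP1 of the centralspindlin complex was below control on both arrays, at -0.20 and -0.14, whereas KIF23, its motor partner, was at -0.08 and 0.03. ECT2, the exchange factor that they recruit, was at -0.11 and 0.04, KIF20A at 0.04 and -0.16, and CEP55, which brings in the abscission machinery, at -0.03 on both.

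TOP2A, which untangles sister chromatids, read 6511 on the LATS2, 6436 on the LATS2N and 6306 on the control array. A second TOP2A probe set read 3179, 4353 and 4950 in the same order. These probe sets of 1 gene differed, at 0.05 and -0.64 for LATS2 against control, so the direction for TOP2A depends on the probe set.

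The transcription factors of the mitotic programme were at or below control on both construct arrays. MYBL2 (B-MYB) read 2440 on the LATS2, 2436 on the LATS2N and 2955 on the control array. Control was the highest, with log2 ratios of -0.28 for each construct, beyond the SDs between probe sets of 0.12 and 0.09 at this signal. FOXM1 read 4548, 3827 and 4695 in the same order, with ratios of -0.05 and -0.29. Each gene had 1 probe set.

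The centrosome and centriole genes were lower on the LATS2N than on the LATS2 array. SASS6, which forms the cartwheel of the new centriole, read 325.4 on the LATS2, 219.6 on the LATS2N and 294.0 on the control array. CEP192, which recruits PLK4 and pericentriolar material, read 405.4, 313.3 and 424.6 in the same order. LATS2N was low alone for each, with log2 ratios against control of -0.42 and -0.44, while the LATS2 array was at 0.15 and -0.07. PCNT (pericentrin), the scaffold of the pericentriolar material, read 1594, 1260 and 1446, with ratios of 0.14 for LATS2 and -0.20 for LATS2N. STIL, the partner of SASS6 in centriole assembly, differed, at 0.22 and 0.06. All 4 were above 0 in LATS2 against LATS2N, from 0.16 for STIL to 0.57 for SASS6, with a median of 0.36 against 0.01 over all genes at the floor or above. SASS6 and CEP192 are dim, with an SD between probe sets of 0.25 for LATS2 against LATS2N, and each of the 4 genes had only 1 probe set above the floor.

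**Figure D5:**
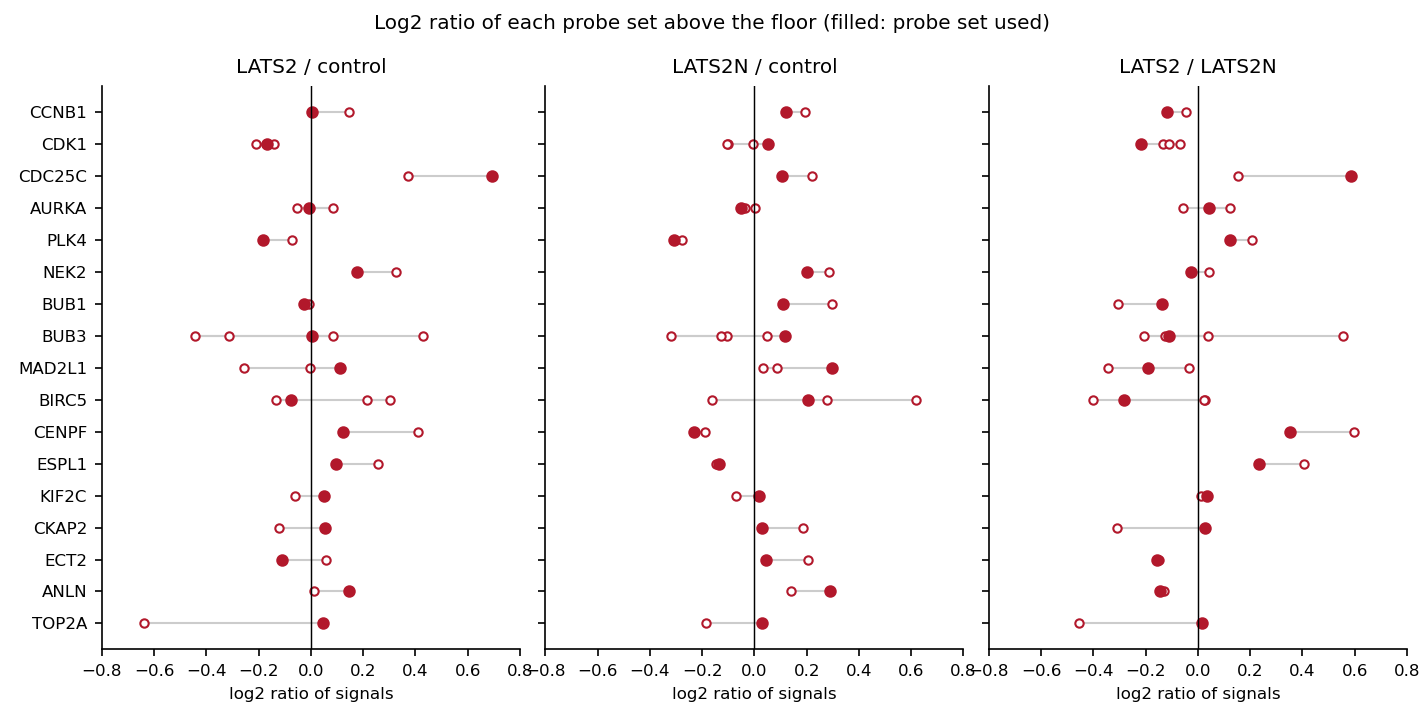
Log2 ratio (x axis) of every probe set above the floor on all 3 arrays, for the 17 genes with at least 2 of them (rows), in the 3 comparisons. Filled points are the probe sets used, open points the others, and the distance between points of 1 gene shows how far its probe sets disagree, as for BUB3, BIRC5 and TOP2A.

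Probe sets for the same gene often disagreed in direction at these small ratios. Of the 17 genes with at least 2 usable probe sets, all of them pointed the same way in 9 for LATS2 against control, 11 for LATS2N against control and 11 for LATS2 against LATS2N. These are 52.9%, 64.7% and 64.7%, against 47.7%, 48.8% and 48.04% of 5537 genes with at least 2. In the plot of probe sets, those of CCNB1, CDC25C, NEK2 and ANLN were all above control on both construct arrays, and those of PLK4 all below it. For LATS2, however, 1 probe set of CCNB1 gave only 0.003 and 1 of ANLN only 0.01. Those of CENPF and ESPL1 were all above control on the LATS2 array and all below it on the LATS2N array. The reverse held for BUB1.

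A wider list of 163 mitotic genes outside the 48 gave a similar picture. It covered the anaphase-promoting complex, the inner kinetochore, condensin and cohesin, other kinesins, entry regulators and other centrosome genes. Its median log2 ratio was 0.02 in LATS2 against control, -0.04 in LATS2N against control and 0.04 in LATS2 against LATS2N, and none of the 163 was 2-fold apart in any comparison. At 1.5-fold, 2 were higher and 1 lower in LATS2 against control, 2 higher and 1 lower in LATS2N against control, and none higher and 2 lower in LATS2 against LATS2N. A count of 2 is 1.23% of the list and a count of 1 is 0.613%, close to or below the shares given above for genes of 500 or more, where at least 136 of the 163 lie in each comparison. Of the 34 other centrosome genes, 21 were above 0 in LATS2 against LATS2N (61.8%, against 52.3% of all genes and 54.8% at 500 or more), with a median of 0.08, a smaller difference than in the 4 centrosome genes above. In LATS2N against control, 15 of 18 condensin, cohesin and chromosome-coating genes were below 0, with a median of -0.05. So were 25 of 36 other kinesin and spindle genes, with a median of -0.09. Among all genes 46.4% were below 0 in that comparison, or 47.7% of those at 500 or more. These were the groups of the list with the largest shares below 0, and others leaned the other way. Above 0 there were 13 of 21 other entry regulators, 15 of 26 inner kinetochore genes and 9 of 16 genes of the anaphase-promoting complex. In LATS2 against control, 7 of the 18 and 13 of the 36 were below 0, against 45.2% of all genes, with a median of 0.04 for each group.

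Within that list, chosen after their values were seen, CCNF and MKI67 were lower on both construct arrays in every probe set. CCNF (cyclin F), the substrate-binding part of a ubiquitin ligase active in G2, read 1087 on the LATS2, 1034 on the LATS2N and 1898 on the control array. It was 1.75-fold and 1.83-fold below control (log2 ratios -0.80 and -0.88), and a dimmer probe set gave -0.59 and -1.03. MKI67, which encodes the proliferation antigen Ki-67 that coats mitotic chromosomes, read 2439, 2234 and 3300, with ratios of -0.44 and -0.56. Its 4 probe sets ranged from -0.44 to -0.18 for LATS2 and from -0.61 to -0.50 for LATS2N. Control was the highest for each of these genes, unlike for most of the 48. MKI67 was not 1.5-fold apart in any comparison, and other genes of the list lay above control on both construct arrays. Among them were DSN1, with ratios of 0.42 and 0.33, MIS18A, with 0.42 and 0.29, and HMMR, with 0.39 and 0.21.

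Besides CCNF, the genes of that list at least 1.5-fold apart in any comparison were CEP97, CROCC, LIN52 and CENPQ, also named after their values were seen. LIN52, a DREAM complex subunit, read 322.3 on the LATS2, 534.3 on the LATS2N and 324.8 on the control array. Its other probe set read 390.9, 384.8 and 364.3 and did not show that difference. CEP97, which restrains cilium formation, was 1.97-fold above control on the LATS2 array and 1.61-fold on the LATS2N array, but its other probe sets gave -0.22 and 0.03 for LATS2. CROCC (rootletin) was 1.79-fold above control on the LATS2 array with a signal of 165.1 on the LATS2 and 92.0 on the control array, and another usable probe set gave -0.04. CENPQ, an inner kinetochore gene with 1 probe set, read 258.6 with LATS2 and 397.2 with LATS2N, 1.54-fold lower with LATS2.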

How the data were processed

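The authors deposited 1 table of probe set signal intensities for 3 arrays. Per the submitters' processing notes, these intensities were made with MAS5, whose version and settings are not given in the sources used here. The equal trimmed means were found from the values. Each array holds 54675 probe sets, including 62 manufacturer's controls. Of the others, 41091 have exactly 1 gene symbol in the platform annotation, 1801 several and 11721 none, and 41037 were updated by gene identifier to RefSeq (GRCh38.p14). Another 7 probe sets that name 1 of the 48 genes among several symbols were left out. Signals below the floor of 50.5, the median of all signals, were set to it before log2 ratios were taken. Genes entered a comparison if the brighter array reached the floor, and were called by size at 1.5-fold or 2-fold. No test was possible, and the number of arrays limits the precision. The spread is the robust SD, from the median absolute deviation, between pairs of probe sets of 1 gene. The 12 genes given on all arrays were those 1.5-fold apart in any comparison or among the 6 largest absolute log2 ratios of any comparison, and further genes are given as members of their role. Of the other mitotic genes, only those 2-fold apart were to be named, and there were none. The genes and lists were chosen with earlier results of these data known. Alternatives were other floors, probe set rules, normalisations and a signal limit. Python 3.11.15, numpy 2.4.6 and pandas 2.3.3 were used.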

Additional observations from a re-analysis of the deposited data

How the results depend on the processing

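No paired analysis was possible because each group has 1 array. Not every alternative held all 48 genes. A floor at the 75th percentile left 46, a signal of at least 500 left 45, and leaving out probe sets of possible shared targets left 33. None of the genes held was 2-fold apart in any comparison under any alternative tried. The median log2 ratio of the genes held stayed between 0.02 and 0.06 for LATS2 against control, between -0.02 and 0.05 for LATS2N against control, and between -0.01 and 0.04 for LATS2 against LATS2N, so its sign is not settled in the last 2. The number at least 1.5-fold apart in LATS2 against control was 2 and became 1 under 4 alternatives. With a floor at the 75th percentile, or a signal of at least 500, the 1 left was CDC25C, because INCENP is too dim for those limits. With the median over probe sets, or without probe sets of possible shared targets, the 1 left was INCENP, since CDC25C was at 0.37 with the median and both of its usable probe sets were removed by the other. For LATS2 against LATS2N the number was 1 and became 0 with the median over probe sets, without probe sets of possible shared targets, with quantile normalisation and with centring on the median. CDC25C was at 0.15 there with the median over probe sets, and just short of 1.5-fold at 0.56 with quantile normalisation and 0.54 with centring. MAD2L1, without probe sets of possible shared targets, was at -0.25 for LATS2 and 0.09 for LATS2N against control and at -0.34 between the constructs, and with the median over probe sets it was at 0.09 for LATS2N against control. PCNT was at 0.17 in LATS2 against LATS2N with the median over probe sets, 1 of which is at the floor. The other 248 values for single genes moved by less than 1 SD between probe sets.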
